A study of Mus musculus with 10 samples.

Results

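The genes that build the primary cilium were followed here in single cells of embryonic mouse back skin. They were 47 genes chosen by name, of 32285 genes listed for the E15.5 and E17.5 libraries and 27998 for the E16.5 libraries, where 46 of the 47 were listed and Tctn2 was not. The rule takes genes by name and not by a measured value, but the genes were chosen with earlier results of these data known. They were grouped by role as 11 genes of the IFT-B complex, 6 of IFT-A, 6 of the motors, 9 of the BBSome, 10 of the transition zone, 3 of the basal body and ciliary membrane, and 2 RFX transcription factors.

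RNA was counted as unique molecular identifiers (UMIs) in 10 libraries. Stage E15.5 had a pair of controls (replicates 2 and 3) and a pair of MOF cKO samples (replicates 5 and 6). Stage E16.5 had replicates 1 and 2 of either genotype, and stage E17.5 a single control beside a single QPC cKO sample. MOF cKO embryos (MOFfl/fl/K14Cre) carried floxed alleles of Kat8, the gene of the histone H4 lysine 16 acetyltransferase MOF, and QPC cKO embryos (QPCfl/fl/K14Cre) those of Uqcrq, a subunit of respiratory complex III. Cre was driven by the Krt14 promoter, which is known to be active in epithelium and not in dermal fibroblasts. Controls were wild-type or heterozygous littermates on a mixed background of C57Bl/6J and CD-1. The E15.5 embryo of MOF cKO replicate 6 was described by the study as mosaic for the deletion, and that of replicate 5 as fully deleted. E15.5 levels are therefore given for each of these libraries.

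The libraries held 13609345 to 203392303 UMIs, and 716 to 10653 cells per library were kept, with more than 1000 but fewer than 6000 genes detected and less than 10% of their UMIs mitochondrial. Among these, basal cells were those with at least 10 UMIs of Krt5 and Krt14 together and under 10 of Krt1 and Krt10. Suprabasal cells had at least 20 UMIs of Krt1 and Krt10, and fibroblasts at least 30 of Col1a1 and Col3a1 and under 10 of Krt5 and Krt14. Basal cells numbered 2470 and 2584 in the E15.5 controls, 901 and 1445 in MOF cKO replicates 5 and 6, 239 and 464 in the E16.5 controls, 21 and 22 in E16.5 MOF cKO, 2807 in the E17.5 control and 1066 in QPC cKO. Any 2 libraries shared at most 36 cell barcodes. All 5 basal markers (Krt15, Col17a1, Itga6, Itgb4 and Trp63) were detected in the basal cells of every library. Their summed level, in UMIs per 1000000 UMIs of the summed cells (CPM), was 3886 and 3715 in the E15.5 controls, 1143 and 2798 in MOF cKO replicates 5 and 6, 2931 and 4405 in the E16.5 controls and 637 and 1080 in E16.5 MOF cKO. Basal cells of both E16.5 MOF cKO libraries and of both E15.5 MOF cKO libraries, replicate 5 most at that stage, carried less of these markers than the controls. The suprabasal markers stood at 4185 and 1337 in basal cells of E16.5 MOF cKO against 909 and 2124 in the controls. Kat8 itself was at 13.02 and 13.71 CPM in basal cells of the E15.5 controls and 13.4 and 10.3 in MOF cKO replicates 5 and 6. At E16.5 it was at 16.4 and 14.9 in controls and 8.31 and 4.51 in MOF cKO, a difference that did not pass the test (edgeR adjusted p = 0.460). The counted tags lie at the 3′ end of the transcript and may lie outside the deleted part, so the Kat8 level does not check the labels. In fibroblasts, Kat8 lay lower in every MOF cKO library than in the controls of its stage, at 6.83 and 5.98 against 9.18 and 9.62 at E15.5 and at 2.81 and 5.39 against 9.60 and 8.23 at E16.5. The log2 fold change there was -0.58 ± 0.12 (SE; adjusted p = 0.194) at E15.5 and -0.95 ± 0.31 (SE; adjusted p = 0.136) at E16.5, and neither passed the edgeR test.

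The primary cilium is a single antenna of microtubules that grows from the mother centriole of a resting cell. Hedgehog signals pass through it, and in skin it is known for its part in the downgrowth of hair follicles and in epidermal differentiation. Its parts are built in the cell body and carried along the shaft by intraflagellar transport (IFT): trains of the IFT-B complex move to the tip on kinesin-2, and trains of the IFT-A complex return on dynein-2. The BBSome is an adaptor that rides on these trains and takes membrane receptors out of the cilium. The transition zone is the gate at the base, and Cep164 and Ofd1 belong to the centriole on which the cilium stands. RFX transcription factors bind an inverted repeat called the X-box in the promoters of ciliary genes.

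Promoters of 42 of the 47 genes were matched in the RefSeq table (GRCm38.p6), from 250 bases before to 50 after the start site. The X-box was searched on both strands as the arms GTNNCC and GNAAC with 3 free bases between them, 14 bases in all, and was found in 10 of the 42, and in 2.49% of the promoters of 27025 genes. By role, 5 of 9 transition zone promoters, 3 of 9 of the BBSome and 2 of 9 of IFT-B held it. None was found in the promoters matched for IFT-A, the motors, the basal body and the RFX genes. The 6 bases GTTGCC of the first arm, which can lie inside the longer pattern, were found in 22 of 42 and in 14.1% of all promoters. In all, 6 spellings of the motif were searched, and these 2 were chosen for description after their counts were known. Of the other 4, which fix ATGG or ANGG in the middle, 1 was in none of the 42 and 3 were in 1 each (Tctn2, Tctn2 and Mks1), and they were in 0.152% to 0.633% of all promoters. The matches are printed to show the pattern in genes whose levels are given below. They are read on the strand of the gene, 5′ to 3′, with the 14 bases of the match in capitals, or their reverse complement where the match lay on the other strand.
B9d2, chr7:25680788-25680817, plus strand: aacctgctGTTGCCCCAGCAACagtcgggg
Mks1, chr11:87853183-87853212, plus strand: gcgtctccGTTGCCAGGGGAACgaggcacc
Tctn1, chr5:122264411-122264432, minus strand: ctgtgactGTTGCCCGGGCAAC
Tctn2, chr5:124598679-124598708, plus strand: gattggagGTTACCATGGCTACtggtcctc
Tmem231, chr8:111933781-111933810, minus strand: cgccgtcgGTTGCCGTGGAGACtcggcgct
Bbs1, chr19:4906605-4906634, minus strand: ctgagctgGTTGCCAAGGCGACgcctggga
Bbs4, chr9:59353464-59353493, minus strand: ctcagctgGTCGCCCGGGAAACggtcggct
Bbs7, chr3:36613489-36613518, minus strand: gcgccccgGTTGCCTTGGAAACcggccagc
Ift57, chr16:49699199-49699228, plus strand: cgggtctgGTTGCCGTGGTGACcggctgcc
Ift22, first of 2 matches, chr5:136908079-136908108, plus strand: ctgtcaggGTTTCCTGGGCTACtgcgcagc
Ift22, second of 2 matches, chr5:136908109-136908138, plus strand: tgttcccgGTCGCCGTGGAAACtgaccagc
A match is a stretch of letters and was not tested as a site. The searched promoter stretches of Ift74 (whole gene at chr4:94614491-94693229, plus strand) and Wdr34 (whole gene at chr2:30031546-30048881, minus strand) held neither the longer pattern nor GTTGCC. The rest of these genes was not searched. The study reported RFX2 and MOF bound at the promoters of both genes in newborn epidermal cells.

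The first question was where in normal skin these genes were expressed. Summed over the 47 genes, basal cells of the controls held 773 and 756 CPM at E15.5, 835 and 718 at E16.5 and 867 at E17.5. Suprabasal cells held 615 and 592, 531 and 617, and 638, and fibroblasts 1022 and 1007, 962 and 940, and 922. The basal gate of the E17.5 control may also hold fibroblasts, as described below. Suprabasal cells were lowest and fibroblasts highest in each of the 5 control libraries. Without Ift20 suprabasal cells were still lowest in each, but the E17.5 control was at 725 in basal cells and 718 in fibroblasts, and E16.5 control replicate 1 at 675 and 696. Per UMI and not per length, the most counted gene of each role in basal cells of the 5 controls was Ift20 at 119 ± 31.6 CPM (SD, n = 5) for IFT-B, Ift43 at 49.5 ± 3.97 for IFT-A, Kif3a at 30.1 ± 6.46 for the motors, Bbip1 at 46.8 ± 11.5 for the BBSome, Cep290 at 27.8 ± 13.5 for the transition zone, Cep164 at 49.9 ± 10.1 for the basal body and Rfx3 at 9.05 ± 2.13 for the RFX factors. These means cross 3 stages, each with its own chemistry, so stage and chemistry cannot be told apart. Cep290, for example, was at 43.7, 41.1, 14.6, 19.8 and 19.7 in the controls of E15.5 (2), E16.5 (2) and E17.5 (1). UMIs of 3′ tags count molecules, and levels of different genes also depend on where their tags fall.

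**Figure D1:**
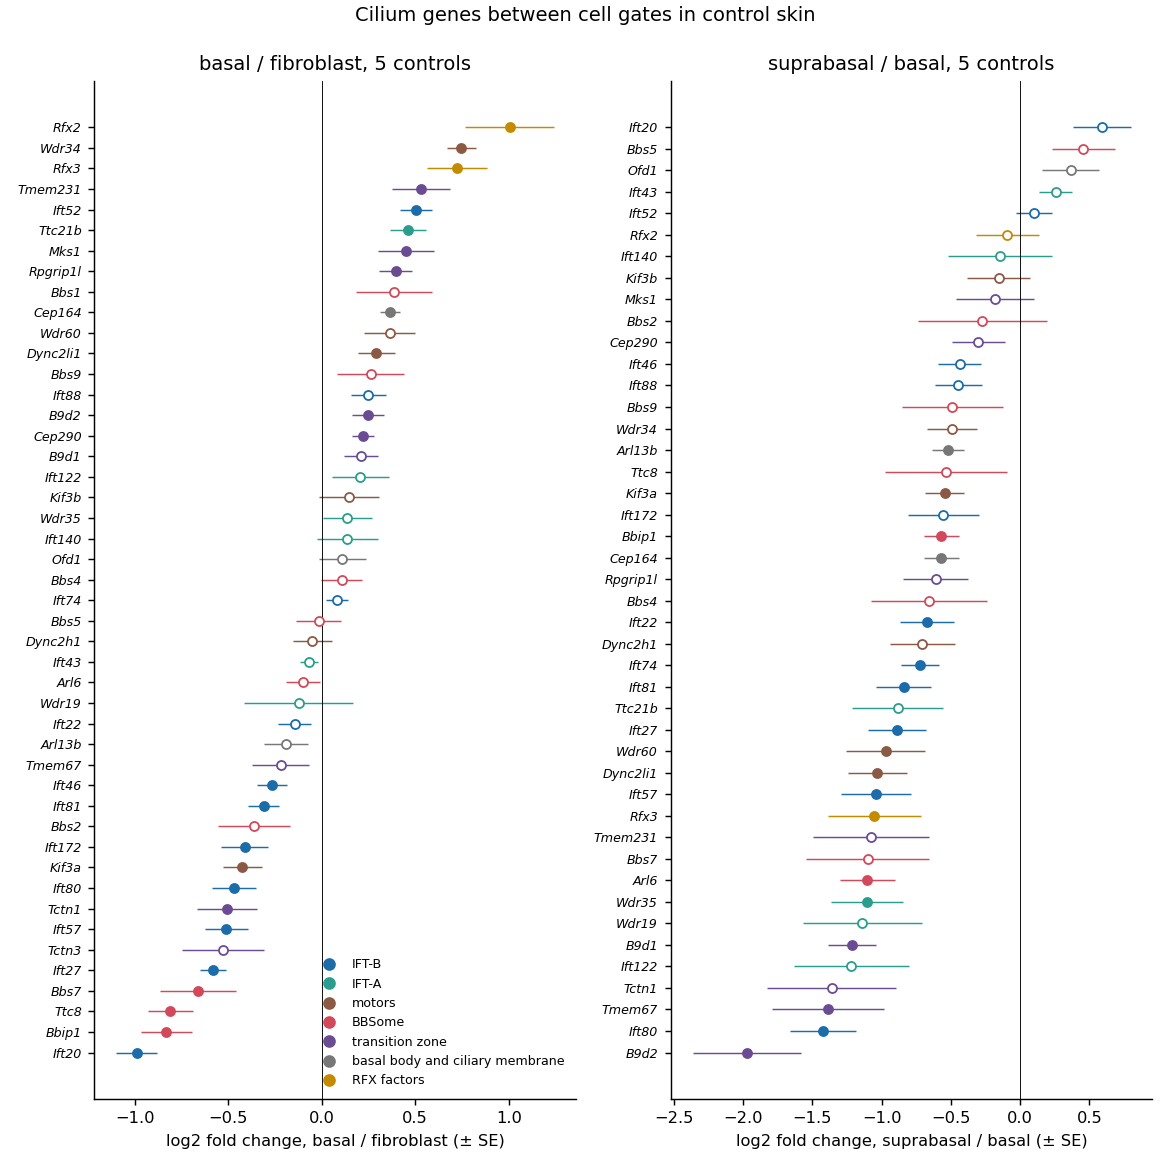
Log2 differences of the cilium assembly genes between cell gates in the 5 control libraries, basal over fibroblast on the left and suprabasal over basal on the right, from the fit with the library as a block. Points are genes coloured by role, bars are standard errors and filled points passed the test, 12 to each side on the left and 18 on the right, where all 18 lie below 0.

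Basal cells and fibroblasts differed in both directions. With the library as a block, 12 of 46 tested genes were higher and 12 lower in basal cells, against 29.8% higher and 29.8% lower (59.6% in all) of 14424 genes tested (edgeR quasi-likelihood test, Benjamini-Hochberg adjusted p under 0.05), so the number called was near the background in both directions. Both RFX genes were higher in basal cells. Of IFT-B, 1 was higher and 7 lower, of the BBSome none was higher and 3 were lower, and of the transition zone 5 were higher and 1 lower. Of IFT-A 1 was higher, of the motors 2 were higher and 1 lower, and of the basal body 1 was higher. With library sizes alone the split was 8 higher and 12 lower, against 25.9% and 29.3% of all genes.

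In the following values the 5 controls stand in the order E15.5 replicates 2 and 3, E16.5 replicates 1 and 2, and E17.5, in CPM. Rfx2, an RFX factor, was at 7.63, 6.41, 3.28, 4.72 and 7.03 in basal cells and 2.99, 3.05, 3.34, 2.06 and 3.89 in fibroblasts, a log2 difference of 1.01 ± 0.24 (SE; adjusted p = 0.0126). Rfx3, its relative, was at 10.6, 9.68, 8.94, 5.45 and 10.6 in basal cells and 7.65, 7.26, 4.03, 2.52 and 7.94 in fibroblasts, with a log2 difference of 0.72 ± 0.16 (SE; adjusted p = 0.01). Rfx3 was higher in basal cells in 5 of 5 libraries and Rfx2 in 4 of 5. Wdr34, an intermediate chain of dynein-2, was at 15.8, 14.7, 19.96, 20.3 and 14.8 in basal cells and 9.83, 9.04, 12.5, 12.6 and 9.08 in fibroblasts, with a log2 difference of 0.75 ± 0.08 (SE; adjusted p = 0.00112). Its levels did not overlap between the gates. Cep164, the distal appendage protein by which the mother centriole docks, was at 55.6, 55.7, 37.5, 60.1 and 40.7 in basal cells and 46.2, 46.1, 30.2, 47.9 and 31.5 in fibroblasts (log2 difference 0.37 ± 0.05 SE, adjusted p = 0.00287). Ift52, of the IFT-B core, was at 22.5, 24.1, 29.2, 27.9 and 23.5 against 19.03, 17.54, 22.95, 17.46 and 16.4 (log2 difference 0.50 ± 0.09 SE, adjusted p = 0.00445). Both were higher in basal cells in each control library. Ttc21b of IFT-A was at 13.9, 14.7, 8.34, 6.78 and 14.5 in basal cells and 13.2, 12.2, 5.84, 5.11 and 8.50 in fibroblasts (log2 difference 0.46 ± 0.10 SE, adjusted p = 0.00835). Rpgrip1l, a scaffold of the transition zone, was at 15.9, 17.003, 8.04, 9.29 and 11.996 against 14.02, 14.9, 6.54, 7.70 and 7.22 (log2 difference 0.40 ± 0.09 SE, adjusted p = 0.0102).

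Lower in basal cells was Ift20, the IFT-B subunit that also sits at the Golgi, at 90.8, 89.3, 161, 111 and 141 against 225, 226, 266, 275 and 204 in fibroblasts, a log2 difference of -0.99 ± 0.11 (SE; adjusted p = 0.00125). Ift27, a small GTPase of IFT-B that links the train to the BBSome, was at 22.3, 22.9, 45.6, 28.9 and 38.9 against 38.04, 38.5, 60.1, 54.4 and 49.3 (log2 difference -0.58 ± 0.07 SE, adjusted p = 0.00174). Both were lower in basal cells in each of the 5 libraries. Bbip1, the smallest BBSome subunit, was at 40.4, 41.98, 67.04, 39.7 and 44.9 against 95.8, 94.6, 101, 91.4 and 51.7 (log2 difference -0.83 ± 0.14 SE, adjusted p = 0.00378). Ttc8, another BBSome subunit, was at 3.39, 3.17, 11.02, 5.31 and 9.78 against 7.38, 7.34, 14.6, 10.5 and 14.3 (log2 difference -0.81 ± 0.12 SE, adjusted p = 0.00296). Ift57, a peripheral IFT-B subunit, was at 11.3, 12.1, 19.96, 10.8 and 17.2 against 21.3, 20.7, 20.2, 17.7 and 21.6 (log2 difference -0.51 ± 0.11 SE, adjusted p = 0.0102). At E16.5 in replicate 1 the basal and fibroblast levels of Ift57 were nearly equal. The basal gate set no limit on collagen UMIs, and its sums held fibroblast RNA, most at E17.5. With gates scaled to the UMIs of each cell, basal cells of the E17.5 control fell from 2807 to 1451. Fibroblasts of that library rose from 1759 to 2868. Its basal gate may hold both cell types, and the share of fibroblasts in it was not tested. Col1a1 and Col3a1, the collagens that set the fibroblast gate, were at 9017 and 10402 CPM in basal cells of the E17.5 control, where Krt5 and Krt14 were at 4565 and 5463, and at 18492 and 21711 in its fibroblasts. In basal cells of E16.5 control replicate 1 the collagens were at 2807 and 2410, and in the other 3 controls Col1a1 was at 282 to 442 and Col3a1 at 361 to 399. The 5 other fibroblast markers summed to 1192 to 5205 in basal cells of the 5 controls. With basal cells of under 10 collagen UMIs the fit called 27 of 46 genes (65.5% of all genes). The count of 24 genes was 11 without E15.5 control replicate 3, 12 without E15.5 control replicate 2 and 16 without E16.5 control replicate 2. The share of all genes called was also below that with all 5 controls in each such fit, as given in the last section.

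Suprabasal cells, which have left the basal layer and begun to differentiate, had less of these genes than basal cells of the same libraries. Of 44 tested genes 18 were lower and none higher, against 16.7% lower and 15.3% higher of 11248 genes. The median log2 difference was -0.63 over the 44 genes and -0.06 over all genes, and 39 of the 44 were below 0. The 18 were 6 genes of IFT-B, 3 of the motors, 3 of the transition zone, 2 of the BBSome, 2 of the basal body and ciliary membrane, 1 of IFT-A and 1 RFX factor. The number was 8 without either E15.5 control library, replicate 2 or replicate 3, and 28 when cells with 10 or more collagen UMIs were left out. With those cells left out the share of all genes called rose as well. The shares for these alternatives are given in the last section. Basal cells with no UMI of the hair germ genes Sox9, Lhx2 or Shh made up 62.1% to 79.5% of the control basal gates. The rest may include hair germ cells, and the comparison was not run without them.

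B9d1, part of the B9 complex of the transition zone, was at 10.6, 6.90, 6.03, 12.1 and 9.83 in suprabasal cells and 22.2, 22.1, 23.2, 25.2 and 20.3 in basal cells, a log2 difference of -1.21 ± 0.17 (SE; adjusted p = 0.00247). Its partner B9d2 was at 4.96, 3.51, 2.01, 0 and 3.01 against 11.6, 11.2, 18.2, 15.8 and 14.5 (log2 difference -1.97 ± 0.39 SE, adjusted p = 0.00899). The levels of B9d1 and of B9d2 did not overlap between the gates. The suprabasal sums of the E16.5 controls came from 31 and 66 cells with 497466 and 826054 UMIs. Levels of a few CPM there rest on few UMIs, here and for the genes that follow. Ift80 of IFT-B was at 2.97, 2.42, 4.02, 1.21 and 2.61 against 6.68, 6.73, 10.1, 5.01 and 8.90 (log2 difference -1.42 ± 0.24 SE, adjusted p = 0.00463). Ift74, a core subunit that pairs with Ift81, was at 36.4, 26.5, 14.1, 14.5 and 14.6 against 46.9, 45.2, 31.9, 33.9 and 27.3 (log2 difference -0.72 ± 0.14 SE, adjusted p = 0.00806). Ift81 was at 8.92, 5.57, 8.04, 3.63 and 7.22 against 13.1, 12.6, 11.3, 9.29 and 14.8 (log2 difference -0.84 ± 0.20 SE, adjusted p = 0.0177), and Ift27 at 11.9, 17.9, 10.1, 15.7 and 16.7 against 22.3, 22.9, 45.6, 28.9 and 38.9 (log2 difference -0.89 ± 0.21 SE, adjusted p = 0.0175). All 4 of these IFT-B genes were lower in suprabasal cells in each of the 5 libraries.

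Arl6, the small GTPase that recruits the BBSome to membranes, was at 3.64, 2.42, 6.03, 7.26 and 8.43 in suprabasal cells and 7.89, 7.24, 16.98, 15.9 and 15.003 in basal cells (log2 difference -1.10 ± 0.20 SE, adjusted p = 0.00581). Bbip1 was at 30.4, 29.2, 26.1, 25.4 and 28.5 against 40.4, 41.98, 67.04, 39.7 and 44.9 (log2 difference -0.57 ± 0.13 SE, adjusted p = 0.0142). Dync2li1, the light intermediate chain of dynein-2, was at 6.94, 4.84, 6.03, 3.63 and 10.4 against 13.6, 13.1, 14.004, 13.6 and 15.8 (log2 difference -1.03 ± 0.21 SE, adjusted p = 0.011). Each was lower in all 5 libraries. Wdr35 of IFT-A was at 6.28, 4.11, 2.01, 2.42 and 8.63 against 14.1, 13.6, 9.24, 4.87 and 12.4 (log2 difference -1.11 ± 0.26 SE, adjusted p = 0.017), and Cep164 at 36.7, 35.7, 24.1, 26.6 and 30.9 against 55.6, 55.7, 37.5, 60.1 and 40.7 (log2 difference -0.57 ± 0.13 SE, adjusted p = 0.0136). Arl13b, the GTPase of the ciliary membrane that is stained to see cilia, was at 27.4, 25.9, 16.1, 13.3 and 27.5 against 38.7, 33.97, 26.8, 23.6 and 47.2 (log2 difference -0.52 ± 0.12 SE, adjusted p = 0.0144). These 3 were also lower in every library. Ift20 went the other way, at 134, 142, 193, 265 and 114 in suprabasal and 90.8, 89.3, 161, 111 and 141 in basal cells, and did not pass edgeR's test (log2 difference 0.59 ± 0.21 SE, adjusted p = 0.0647) although DESeq2 called it higher.

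The main comparison was MOF cKO with control in basal cells at E15.5. Levels of nearly all cilium assembly genes were lower in both MOF cKO libraries, far more so in replicate 5 than in replicate 6, although no gene passed the test. Their summed level was 773 and 756 CPM in the controls (764 ± 12.1, SD, n = 2), 363 in replicate 5 and 630 in replicate 6 (496 ± 189, SD, n = 2). As a share of the control mean, replicate 5 stood at 47.5% and replicate 6 at 82.4%. In replicate 5, 37 of the 47 genes were under 50% of the control mean, with a median of 34.4%, where the median of the 14364 genes tested was 79.1% and 19.6% of them were under 50%. In replicate 6 none of the 47 was under 50%, with a median of 81.3% beside 100.4% for all genes tested. The libraries also differed in mitochondrial UMIs. Basal cells under 5% of these were 731 of 901 in replicate 5 and 447 of 1445 in replicate 6. In controls 2 and 3 they were 1404 of 2470 and 1829 of 2584. The part of this in the contrast between replicates 5 and 6 was not tested.

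**Figure D2:**
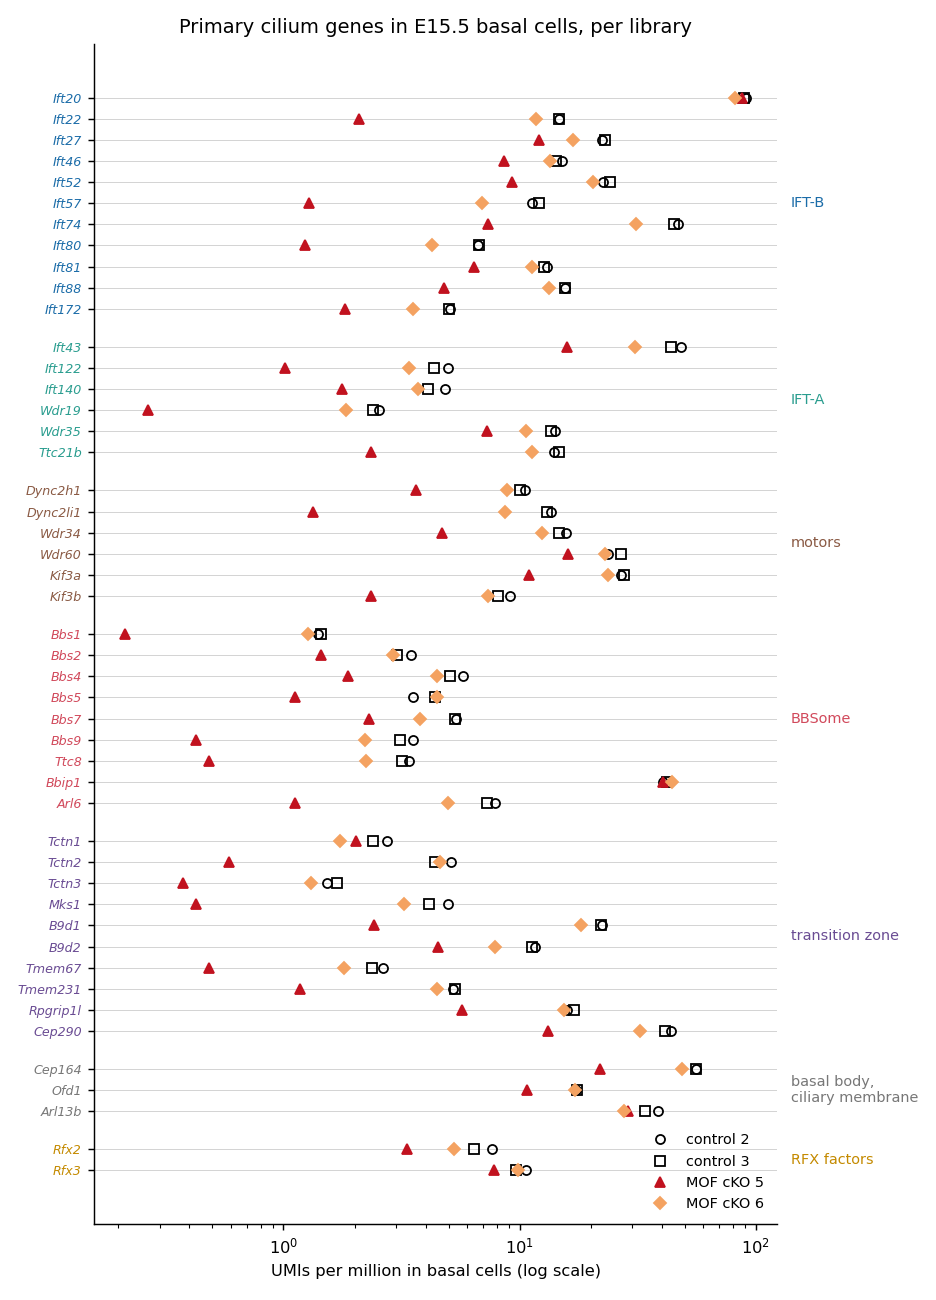
Level of each cilium assembly gene in basal cells at E15.5, in CPM on a log axis, grouped by role, with 1 point per library. For most genes MOF cKO replicate 5 lies lowest and replicate 6 between it and the control libraries, while Ift20 and Bbip1 lie close together in all 4 libraries.

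Both MOF cKO libraries lay below both controls for 43 of the 47 genes and above them for none, against 32.9% below and 17.7% above of all genes tested. These were 11 of 11 genes of IFT-B, 6 of 6 of IFT-A, 6 of 6 motors, 7 of 9 of the BBSome, 9 of 10 of the transition zone, 3 of 3 of the basal body and ciliary membrane, and 1 of 2 RFX factors. The ranges of the groups overlapped for Bbip1, Bbs5, Tctn2 and Rfx3. The edgeR fit of 2 against 2 called none of 47 genes, as it called 0% of 14364, with 4 of the 47 (Ift43, Ift27, B9d2 and Wdr35) at an unadjusted p under 0.05 (9.11% of all genes) and none called by DESeq2 (0.787%). The median log2 fold change of the 47 was -0.72, beside -0.01 for all genes, and 45 of 47 were below 0.

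Without replicate 6, so that replicate 5 stood alone and was assumed to vary like the controls, 42 of the 47 genes were called lower and 2 higher, against 26.8% lower and 22.6% higher of 15213 genes. The 2 called higher there, Ift20 and Bbip1, had levels in replicate 5 at 97.3% and 98.5% of the control mean before the TMM scaling. Without replicate 5, the mosaic replicate 6 gave 7 genes called lower, B9d2, Cep290, Dync2li1, Ift27, Ift43, Ift57 and Ift74, and none higher, against 2.57% lower and 2.40% higher of 15039 genes. Both fits share the 2 controls.

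Among the transport genes, the median share of the control mean in replicate 5 was 36.2% over the 11 genes of IFT-B, 28.1% over the 6 of IFT-A and 33.1% over the 6 motor genes, beside 34.4% over all 47. In replicate 6 these medians were 79.4%, 75.8% and 85.7%. Ift74 was at 46.9 and 45.2 CPM in controls against 7.34 and 31.1 in MOF cKO replicates 5 and 6, a log2 fold change of -1.19 ± 0.56 (SE; adjusted p = 0.508). Ift57, with an X-box pattern in its promoter, was at 11.3 and 12.1 in controls against 1.29 and 6.93 in MOF cKO. It was the lowest IFT-B gene relative to control in both MOF cKO libraries, at 11% and 59.4%. Ift20 differed from these. It was at 90.8 and 89.3 in controls against 87.6 and 81.5 in MOF cKO, a log2 fold change of 0.07 ± 0.17 (SE; adjusted p = 0.844) that was -0.09 with library sizes alone. Ift20 made up 11.7% and 11.8% of the UMIs of all 47 genes in the controls and 24.1% in replicate 5. Without it the summed level was 682 and 666 in the controls, 275 in replicate 5 and 548 in replicate 6.

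Ift43 of IFT-A was at 48.4 and 43.9 in controls against 15.9 and 30.7 in MOF cKO, with a log2 fold change of -0.88 ± 0.23 (SE; adjusted p = 0.508) and an unadjusted p of 0.015. Its levels were lower in both MOF cKO libraries, in the same order as for Ift74. Wdr19, another IFT-A gene, was the lowest of its complex in replicate 5 at 10.8% of the control mean. Among the motors, Kif3a, a kinesin-2 subunit, was at 26.9 and 27.6 against 10.98 and 23.6 (log2 difference -0.55 ± 0.28 SE, adjusted p = 0.508). Wdr34 was at 15.8 and 14.7 against 4.71 and 12.4 (log2 difference -0.73 ± 0.37 SE, adjusted p = 0.508), and Dync2li1 at 13.6 and 13.1 against 1.34 and 8.64, the lowest motor gene in both MOF cKO libraries at 10.04% and 64.8% of control. Both dynein-2 genes stood below control in both MOF cKO libraries.

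BBSome genes had a median of 28.4% of the control mean in replicate 5 and 82.9% in replicate 6. Bbs9 was lowest in replicate 5 at 12.9%, with 3.53 and 3.11 CPM in controls and 0.428 and 2.21 in MOF cKO. Arl6 was at 7.89 and 7.24 against 1.12 and 4.96. Bbip1 and Bbs5 overlapped between the groups. Bbip1, also near its control level in replicate 5, was at 40.4 and 41.98 in controls against 40.6 and 44.02 in MOF cKO (log2 difference 0.19 ± 0.13 SE, adjusted p = 0.537). The highest of the other 8 BBSome genes in replicate 5 was Bbs2 at 44.5% of control. Bbs5 was at 3.53 and 4.38 in controls against 1.12 and 4.49 in MOF cKO, low in replicate 5 and above both controls in replicate 6.

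The transition zone had the lowest median of the 7 roles in replicate 5, 22.8% of the control mean, and 78.9% in replicate 6. Mks1, of the protein complex at this gate, was at 4.96 and 4.15 in controls against 0.428 and 3.25 in MOF cKO. B9d1 was at 22.2 and 22.1 against 2.41 and 18.2, and Cep290, which bridges microtubules and membrane, at 43.7 and 41.1 against 13.2 and 32.4 (log2 difference -0.79 ± 0.33 SE, adjusted p = 0.508). All 3 were lowest in replicate 5. Tctn1 was the highest of the 10 in replicate 5, at 79.1% of control. The 10 genes with a printed X-box match ranged from 9.4% (Mks1) to 79.1% (Tctn1) of the control mean in replicate 5 and from 59.4% (Ift57) to 97.7% (Tctn2) in replicate 6, and the 47 genes from 9.4% to 98.5% and from 59.4% to 113.5%.

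Genes of the basal body and ciliary membrane were less low, with a median of 61.6% in replicate 5 and 87.1% in replicate 6 over 3 genes. Cep164 was at 55.6 and 55.7 in controls against 21.8 and 48.5 in MOF cKO (log2 difference -0.56 ± 0.28 SE, adjusted p = 0.508). Arl13b was at 38.7 and 33.97 against 28.9 and 27.7 (log2 difference -0.20 ± 0.18 SE, adjusted p = 0.599), with the MOF cKO libraries at 79.4% and 76.2% of control. Of the RFX factors, Rfx2 was at 7.63 and 6.41 against 3.32 and 5.26 (log2 difference -0.58 ± 0.25 SE, adjusted p = 0.508) and Rfx3 at 10.6 and 9.68 against 7.82 and 9.88 (log2 difference -0.06 ± 0.18 SE, adjusted p = 0.886). Rfx2 was lower in both MOF cKO libraries and the Rfx3 groups overlapped, with a log2 fold change that turned to 0.067 in cells under 5% mitochondrial UMIs. In the same basal cells, the 5 basal markers summed to 1143 CPM in replicate 5 and 2798 in replicate 6, against 3886 and 3715 in the controls, in the same order as the summed level of the cilium assembly genes for the MOF cKO libraries, and Krt5 was at 2139 and 4138 against 4974 and 4283. Their part in the low levels was not tested. Erythroid markers summed to 28535 CPM in replicate 5 and 10795 in replicate 6, against 15795 and 18429 in the controls, and hair germ markers to 237 and 274 against 315 and 306. Counted by cells, those with no UMI of Sox9, Lhx2 or Shh, genes of the hair germ, made up 48.2% of the basal gate in replicate 5. In replicate 6 they made up 65.1%, and in the controls 66.1% and 63.5%. The part of this difference in the low levels was not tested. Among basal cells with no UMI of these 3 genes the median log2 fold change was -0.58, and among basal cells with under 10 collagen UMIs it was -0.77.

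**Figure D3:**
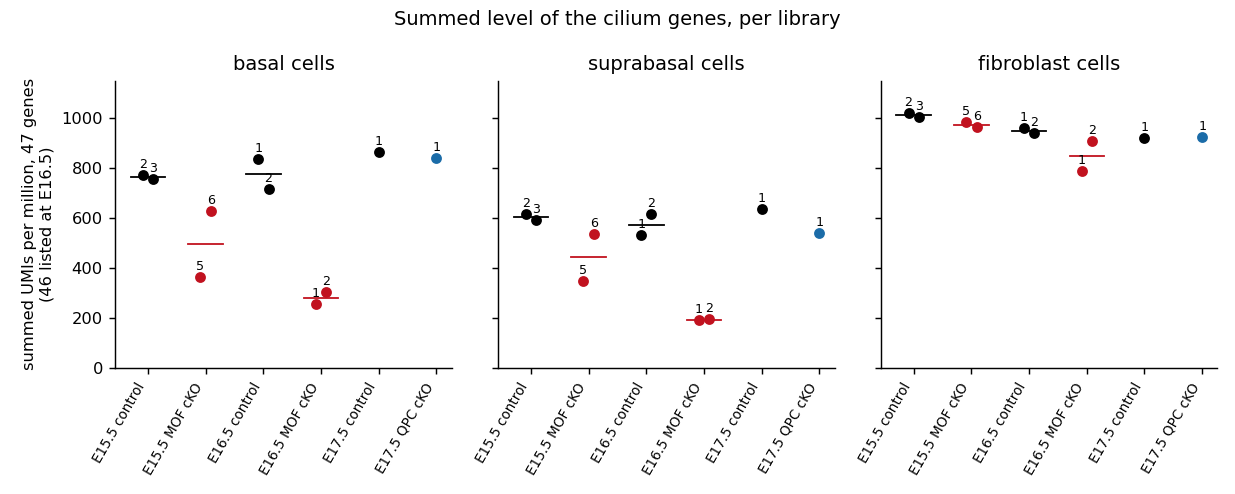
Summed level of the cilium assembly genes in each library, in CPM from 0, for basal cells, suprabasal cells and fibroblasts at each stage. In basal cells at E15.5 the MOF cKO libraries sit at 363 and 630 below the controls at 773 and 756, and at E16.5 at 258 and 304 below 835 and 718. In fibroblasts the MOF cKO mean is 96.1% of the control mean at E15.5 and 89.3% at E16.5.

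At E16.5 the basal cells of both MOF cKO libraries had low levels. The summed level was 835 and 718 CPM in the controls (776 ± 83.4, SD, n = 2) against 258 and 304 in MOF cKO (281 ± 33.1, SD, n = 2), 36.2% of the control mean. The median of the 9454 genes tested was itself 56.9% and 68.0% of the control mean in MOF cKO replicates 1 and 2. Of these genes 43.9% and 32.9% were under 50%. By role the summed level in the 2 MOF cKO libraries was 22.6% and 28.9% of the control mean for the transition zone, 21.1% and 31.5% for IFT-A, 30.9% and 32.7% for the motors, 35.9% and 40.4% for the BBSome, and 38.2% and 40.0% for IFT-B. It was 29.7% and 56.5% for the basal body and ciliary membrane and 74.3% and 60.4% for the RFX factors. In MOF cKO most of the sum of IFT-B, of the BBSome and of IFT-A came from 1 gene each, Ift20, Bbip1 and Ift43. Without Ift20 the other IFT-B genes were at 14.5% and 29.6% of the control mean, without Bbip1 the other BBSome genes at 17.7% and 9.59%, without Ift43 the other IFT-A genes at 9.91% and 8.07%, without Cep290 the other transition zone genes at 12.1% and 36.1%, and without Kif3a the other motor genes at 39.99% and 32.5%, so the order of the roles depends on single genes. Only 21 and 22 basal cells stood behind these values, and they held 228 UMIs of these genes. Of the 46 genes listed, 14 had no UMI in either MOF cKO library and 16 had 1 to 3.

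Of the 46 listed genes 29 passed the filter on low counts and were tested, and 17 were not. Of the 29, 13 had 0 to 3 UMIs over both MOF cKO libraries and passed through the deeper controls, so how many lay below the controls is set in part by depth. The edgeR fit called none of the 29, against 0.243% of all genes, each of them higher. At an unadjusted p under 0.05 there were 13, each of them lower, where 1923 of 9454 genes were under it in either direction, and DESeq2 called 1 lower, B9d1 (0.444% of all genes lower). The median log2 fold change was -1.01, or -0.96 with the genes at 0 set to their limit, beside a median of -0.11 for all genes. With library sizes alone these medians were -1.49 and -0.63.

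Ift74 was at 31.9 and 33.9 CPM in the E16.5 controls and 0 and 6.77 in MOF cKO, that is 337 UMIs in the controls and 3 in MOF cKO, a level 8.91-fold lower (interval 3.02 to 43.4, counting error only). Wdr34 was at 19.96 and 20.3 against 2.77 and 6.77, 4.07-fold lower (1.56 to 15.1) from 4 UMIs. B9d1 was at 23.2 and 25.2 and at 0 in both MOF cKO libraries, at least 6.58-fold lower when read against 3 UMIs over the group. Arl6 was likewise at 16.98 and 15.9 and at 0, at least 4.36-fold lower. The same bound for Ttc8 and for Ift122 was 1.93-fold. These single-gene values rest on few UMIs, and the counting error is wide.

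Kif3a was at 29.2 and 25.5 in the E16.5 controls and 2.77 and 9.02 in MOF cKO (log2 difference -1.64 ± 0.57 SE, adjusted p = 0.198). Ift43 was at 53.03 and 48.7 against 13.9 and 22.6 (log2 difference -0.96 ± 0.39 SE, adjusted p = 0.238), and Cep164 at 37.5 and 60.1 against 8.31 and 27.1 (log2 difference -0.96 ± 0.59 SE, adjusted p = 0.388). These 3 did not overlap between the groups. Cep290 was at 14.6 and 19.8 against 11.1 and 0 (log2 difference -1.28 ± 0.999 SE, adjusted p = 0.49), and Arl13b at 26.8 and 23.6 against 13.9 and 13.5 (log2 difference -0.37 ± 0.43 SE, adjusted p = 0.647). The value of Arl13b turned to 0.47 in cells with under 10 collagen UMIs and to 0.29 in cells without hair germ UMIs. Ift20 was at 161 and 111 against 96.996 and 74.4 (log2 difference -0.13 ± 0.32 SE, adjusted p = 0.834), Bbip1 at 67.04 and 39.7 against 27.7 and 36.1 (log2 difference -0.19 ± 0.37 SE, adjusted p = 0.792), and Rfx3 at 8.94 and 5.45 against 8.31 and 6.77 (log2 difference 0.60 ± 0.63 SE, adjusted p = 0.614). Rfx2 was at 3.28 and 4.72 and at 0 in both MOF cKO libraries, and was not tested. The values of Ift20 and Bbip1 turned to 0.071 without MOF cKO replicate 2 and to 0.041 without control replicate 1. Ift20 was again a larger part of the UMIs of the whole set, at 37.6% and 24.4% in MOF cKO against 19.3% and 15.49%. Fibroblast markers in these basal cells summed to 424 and 670 CPM in MOF cKO and 3158 and 1360 in controls, and markers of dividing cells to 136 and 496 against 1013 and 854. Their part in the differences was not tested.

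Over both stages, with stage as a term, 38 of 46 genes were lower in every MOF cKO library than in every control of the same stage and none higher, against 20.9% and 3.59% of 13189 genes. Of the 38, 14 had no UMI in either E16.5 MOF cKO library, and 13 had not passed the filter on low counts at E16.5. For such genes low depth can by itself give a place below the controls at that stage. Read against 3 UMIs over the group, 8 of the 14 had a bound, from 1.14-fold to 6.58-fold lower. Only B9d1 (6.58-fold) and Arl6 (4.36-fold) had a bound above 1.93-fold. The bounds are of unscaled CPM. On that scale the median of all genes tested at E16.5 was 56.9% and 68.0% of the control mean in MOF cKO replicates 1 and 2. The part of depth was not tested. The 38 were all 11 of IFT-B, all 6 of IFT-A, 5 of 6 motors, 6 of 9 of the BBSome, 6 of 9 of the transition zone, 3 of 3 of the basal body and ciliary membrane, and Rfx2. The 8 that overlapped at either stage were Bbs4, Bbs5, Bbip1, Tctn1, Tmem67, Tmem231, Rfx3 and Dync2h1, the heavy chain of dynein-2. The fit called none of the 46 genes, as it called 0% of all genes. It had 20 of the 46 at an unadjusted p under 0.05, each lower, where 1952 of 13189 genes were under it in either direction. DESeq2 called 2 lower, Ift43 and Ift74 (0.455% of all genes called lower). With all genes of at least 1 UMI tested, edgeR called 6 lower, Arl6, B9d1, Dync2li1, Ift43, Ift57 and Ift74 (0.663% of all), and without the mosaic replicate 6 it called 16 lower (4.09% of all).

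The median log2 fold change over both stages was -0.84, beside -0.08 for all genes, and 44 of 46 genes were below 0. By role it was -0.99 for IFT-A, -0.91 for the transition zone, -0.86 for IFT-B, -0.81 for the BBSome, -0.78 for the motors, -0.30 for the basal body and ciliary membrane and -0.37 for the RFX factors. The log2 fold change was -1.48 ± 0.45 (SE; adjusted p = 0.25) for Ift74, -0.93 ± 0.21 (SE; adjusted p = 0.156) for Ift43 and -0.95 ± 0.33 (SE; adjusted p = 0.292) for Wdr34. It was -0.83 ± 0.30 (SE; adjusted p = 0.294) for Kif3a and -0.91 ± 0.40 (SE; adjusted p = 0.332) for Cep290, and Cep164 stood at -0.72 ± 0.32 (SE; adjusted p = 0.335). It was -0.83 ± 0.45 (SE; adjusted p = 0.395) for Rfx2 and -0.28 ± 0.20 (SE; adjusted p = 0.498) for Arl13b. Near 0 were Ift20 at -0.06 ± 0.18, Bbip1 at 0.02 ± 0.19 and Rfx3 at 0.09 ± 0.28, and each of these 3 changed direction under an alternative. The difference between the stages, tested as an interaction of stage and genotype, was called by edgeR for none of 46 genes (0.0152% of all genes), with 1, Wdr35, at an unadjusted p under 0.05 (11.5% of all genes) and none called by DESeq2 (1.55%).

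**Figure D4:**
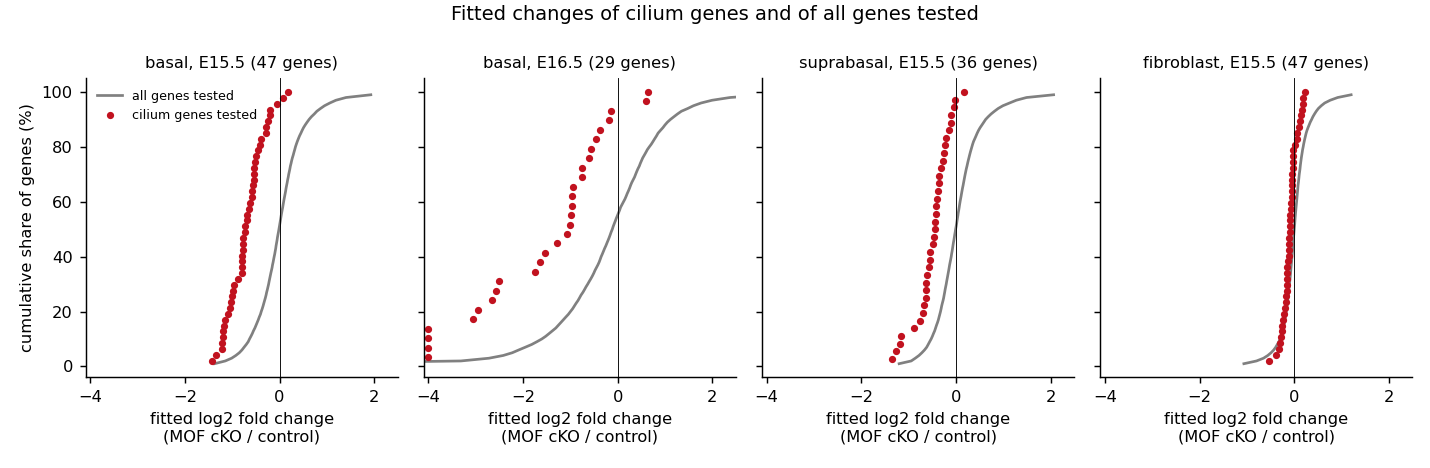
Cumulative share of genes, in percent, at or below each fitted log2 fold change of MOF cKO over control, with cilium assembly genes as points and all genes tested as a line, for basal cells at E15.5 and E16.5 and for suprabasal cells and fibroblasts at E15.5. In basal cells at E15.5 the points lie left of the line, with a median of -0.72, and in fibroblasts they lie close to it (-0.09). At E16.5 the place of the points is set in part by depth, since 13 of the 29 genes had 0 to 3 UMIs over both MOF cKO libraries, and the 4 with none are drawn at the left edge of the axis.

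Other genes of the cilium, a list of 64 that shares no gene with the 47, were also measured at E15.5. In basal cells the edgeR fit tested 60 of them, called none (0% of all genes), had 4 at an unadjusted p under 0.05 (9.11% of all genes) and gave a median log2 fold change of -0.34, beside -0.01 for all genes. Over both stages it called none of 60 (0% of all genes), had 18 at an unadjusted p under 0.05 (14.8% of all genes) and 53 below 0, with a median of -0.64, beside -0.08 for all genes. Tmem107, of the transition zone, had a log2 fold change of -1.20 ± 0.33 (SE; adjusted p = 0.235), Hspb11 (Ift25), the IFT-B partner of Ift27, -0.71 ± 0.21 (adjusted p = 0.241), and Kifap3, the adaptor of kinesin-2, -1.16 ± 0.37 (adjusted p = 0.259). In the controls, 17 of 56 of them were lower in suprabasal than in basal cells and none higher (16.7% and 15.3% of all genes), and in basal cells against fibroblasts 11 of 62 were higher and 21 lower (29.8% of all genes in each direction).

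In suprabasal cells of MOF cKO the levels were lower too, from fewer cells. There were 147 and 361 such cells in the E15.5 controls and 188 and 213 in MOF cKO. The summed level was 615 and 592 CPM in the controls (604 ± 16.3, SD, n = 2), 350 in replicate 5 and 536 in replicate 6 (443 ± 132, SD, n = 2). Of the 47 genes 36 were tested and 11 were not, and 17 of the 36 were lower in both MOF cKO libraries (21.8% of 10819 genes), with none higher (16.7%). None was called by edgeR (0% of all genes) or DESeq2 (0.453%), and 2 were at an unadjusted p under 0.05, Ift43 and Ift74 (7.73% of all genes). The median log2 fold change was -0.44, beside -0.01 for all genes, and without replicate 6 the fit called 9 lower (6.43% of 11374 genes). Ift74 was at 36.4 and 26.5 in controls against 6.58 and 18.5 in MOF cKO (log2 difference -1.26 ± 0.39 SE, adjusted p = 0.631), and Ift20 at 134 and 142 against 116 and 124 (log2 difference -0.10 ± 0.17 SE, adjusted p = 0.859). Replicate 5 was again the lower library for Ift74. In these cells Col1a1 was at 525 and 472 CPM in MOF cKO replicates 5 and 6 against 224 and 151 in the controls. Krt5 was at 1322 and 3320 against 5537 and 3311. The part of these shifts in the low levels was not tested.

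At E16.5 suprabasal cells numbered 31 and 66 in the controls against 9 and 13 in MOF cKO. The summed level was 531 and 617 in the controls against 192 and 195 in MOF cKO, 33.7% of the control mean. All genes were low here too. The median of the 4266 genes tested was 57.6% and 75.2% of the control mean in MOF cKO replicates 1 and 2. Of these genes 45.1% and 25.3% were under 50%. The gated cells differed in their markers too. Krt14, a keratin of the basal layer, was at 30400 and 20165 CPM in MOF cKO against 6804 and 6883 in the controls, while the 5 other basal markers summed to 145 and 980 against 2712 and 3919 and the suprabasal markers to 17723 and 7239 against 56812 and 44829. The part of these shifts in the low levels was not tested. Of the cilium assembly genes 3 could be tested, Ift20, Ift43 and Bbip1. The edgeR fit called none of the 3 (3.35% of all genes higher and 0.68% lower), with none at an unadjusted p under 0.05 (25.9% of all genes), and DESeq2 called none (5.32%). Over both stages 29 genes were tested, 23 of which had 0 to 3 UMIs over both E16.5 MOF cKO libraries. None was called by edgeR (0.150% of all genes) or DESeq2 (1.93%), with 5 at an unadjusted p under 0.05 (13% of all genes). The interaction of stage and genotype was called for none of 29 by edgeR (0.0301% of all genes higher, 0.0401% either way), with none at an unadjusted p under 0.05 (12.7% of all genes), and none by DESeq2 (1.12%). Ift74 had a log2 fold change of -1.13 ± 0.41 (SE; adjusted p = 0.311) there and Wdr34 of -1.12 ± 0.51 (SE; adjusted p = 0.382).

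In fibroblasts, where Kat8 lay lower in MOF cKO as given above, none of the genes was called by edgeR. The summed level at E15.5 was 1022 and 1007 CPM in the controls (1014 ± 10.1, SD, n = 2) against 986 and 964 in MOF cKO (975 ± 15.3, SD, n = 2), 96.1% of the control mean, a difference of -39.9. At E16.5 it was 962 and 940 in the controls (951 ± 15.4, SD, n = 2) against 789 and 909 in MOF cKO (849 ± 85.0, SD, n = 2), 89.3%. At E15.5, 20 of 47 genes lay lower in both MOF cKO libraries and 6 higher, against 20.4% and 26.3% of 16268 genes. At E16.5, 16 of 46 lay lower and 7 higher, against 35.8% and 18.1% of 12569 genes. Over both stages 10 of 46 lay lower and 2 higher within each stage (11% and 9.35% of 14895 genes). The edgeR fits called none of 47 at E15.5 (0% of all genes), none of 46 at E16.5 (4.64%, of which 2.43% higher and 2.21% lower) and none of 46 over both stages (0%). At an unadjusted p under 0.05 there were 6, 4 and 9, against 15.6%, 25.2% and 22.5% of all genes. DESeq2 called 2 lower at E15.5, Bbs7 and Cep290 (1.59% of all genes lower), none at E16.5 (7.56% either way), and 6 over both stages, 5 of them lower and 1 higher (4.89% and 5.47%). The interaction of stage and genotype was called for none of 46 by edgeR (1.26% of all genes, 0.423% higher and 0.839% lower), with 5 at an unadjusted p under 0.05 (18.7% of all genes), and none by DESeq2 (6.47%).

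The median log2 fold change in fibroblasts was -0.09 at E15.5, 0.01 at E16.5 and -0.06 over both stages, beside 0.00, 0.01 and 0.01 for all genes. The 6 genes called by DESeq2 over both stages were Arl6, Bbs7, Cep290, Ift43 and Ift57, lower, and Ift81, higher. Cep290 was at 39.8 and 38.5 in the E15.5 controls and 30.2 and 31.03 in MOF cKO, and at 13.5 and 17.4 against 6.07 and 8.85 at E16.5 (edgeR log2 difference -0.61 ± 0.16 SE, adjusted p = 0.12). Ift43 was at 55.8 and 53.98 against 46.99 and 44.8, and at 53.4 and 50.7 against 40.5 and 40.7 (log2 difference -0.26 ± 0.07 SE, adjusted p = 0.12). Ift74 was at 45.5 and 45.5 against 43.01 and 39.8, and at 31.3 and 34.2 against 24.1 and 23.8 (log2 difference -0.25 ± 0.10 SE, adjusted p = 0.185). For these 3 genes both MOF cKO libraries lay below both controls at each stage. Wdr34 was at 9.83 and 9.04 against 8.64 and 9.37, and at 12.5 and 12.6 against 11.99 and 13.8 (log2 difference 0.01 ± 0.10 SE, adjusted p = 0.965). Whether the change in basal cells differed from that in fibroblasts was not tested.

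At E17.5 the question was whether loss of Uqcrq in the same epithelium came with the same change. With 1 library per group there is no test, and the intervals cover counting error of the UMIs only. As given above, the basal gate of the control may hold fibroblasts too. Basal levels and ratios at this stage may therefore compare different mixes of cells. Uqcrq was at 103 CPM in basal cells of the control and 45.7 in QPC cKO, but in fibroblasts it was at 69.4 in control and 122 in QPC cKO. The summed level of the 47 genes in basal cells was 867 in control and 841 in QPC cKO, 97.0% of control. By role it was 79.3% of control for IFT-B, or 95.3% without Ift20, 103% for the BBSome, 104% for the basal body and ciliary membrane, 110% for the motors, 111% for IFT-A and 115% for the transition zone and the RFX factors. All 47 genes had at least 20 UMIs over both libraries. Of these, 3 were at least 1.5-fold lower and 2 at least 1.5-fold higher, where 23.9% of 15860 genes were lower and 9.44% higher, and the median log2 ratio was 0.07.

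**Figure D5:**
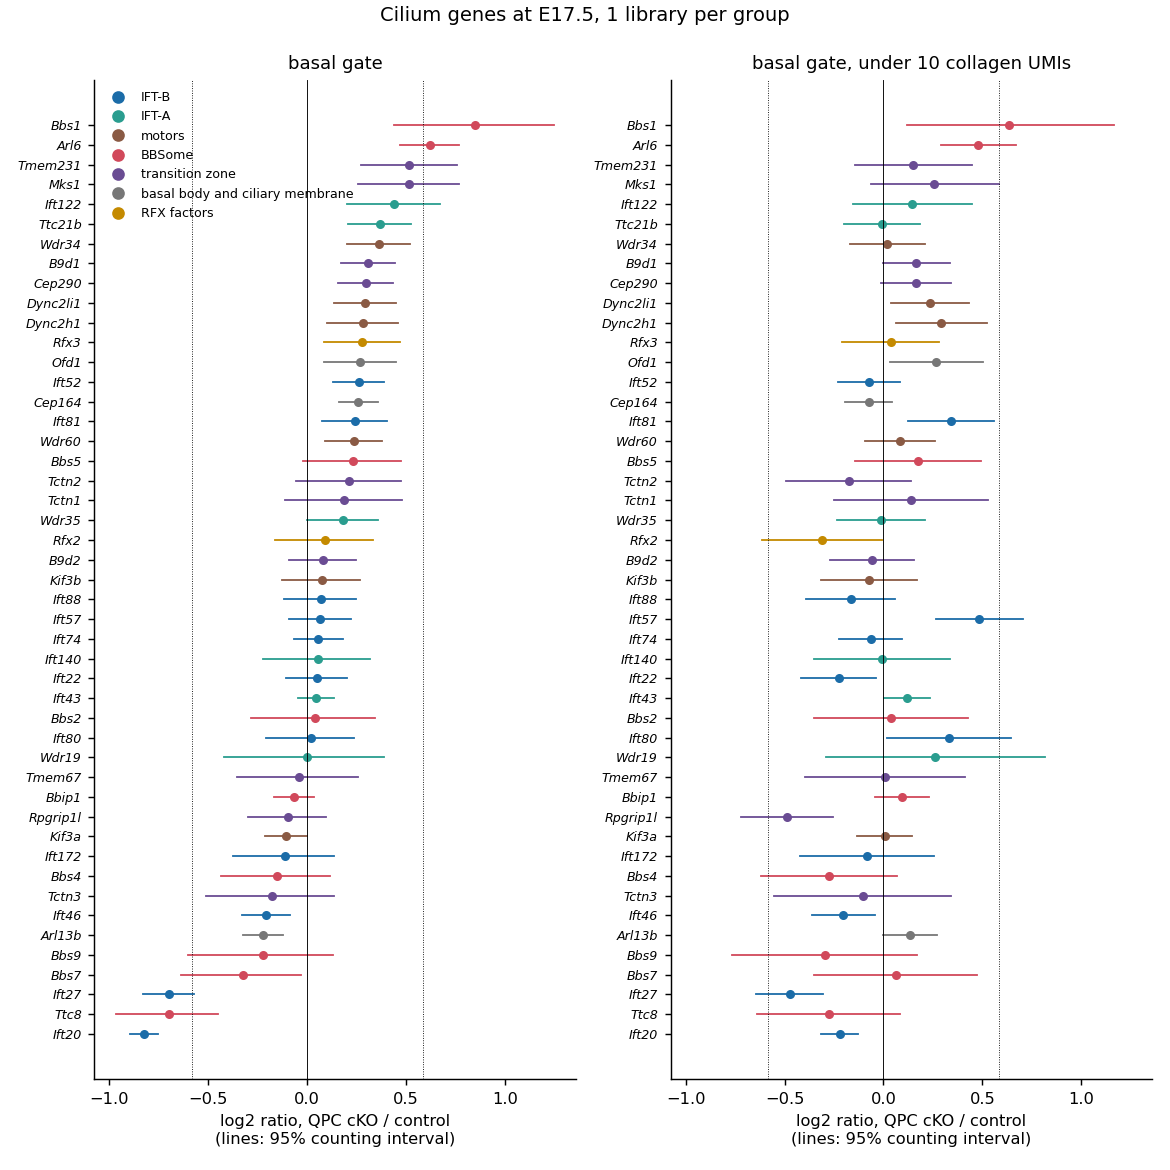
Log2 ratio of QPC cKO to control at E17.5 for each of the 47 cilium assembly genes in basal cells, on the left for all of them and on the right for those with under 10 collagen UMIs. Points are coloured by role, lines are 95% intervals for counting error and dotted lines mark 1.5-fold, past which 5 genes lie on the left and 1 (Bbs1) on the right.

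The 3 lower genes were Ift20, at 141 in control and 79.8 in QPC cKO (log2 ratio -0.83, interval -0.90 to -0.76), Ift27, at 38.9 in control and 23.9 in QPC cKO (log2 ratio -0.70, interval -0.83 to -0.57), and Ttc8, at 9.78 in control and 6.001 in QPC cKO (log2 ratio -0.70, interval -0.97 to -0.45). The 2 higher genes were Bbs1, at 1.90 in control and 3.42 in QPC cKO (log2 ratio 0.85, interval 0.44 to 1.25), and Arl6, at 15.003 in control and 23.04 in QPC cKO (log2 ratio 0.62, interval 0.47 to 0.77). Tmem231 was the third highest, at 5.92 in control and 8.46 in QPC cKO (log2 ratio 0.52, interval 0.27 to 0.76). Ift20, Ift27 and Ttc8 were also among the genes lower in basal cells than in fibroblasts of the controls. Fibroblast markers in the basal cells summed to 5205 CPM in control and 1782 in QPC cKO, and 37.4% and 85.9% of these cells had under 10 collagen UMIs. Basal cells with no UMI of Sox9, Lhx2 or Shh made up 62.1% of the control gate and 35.5% of the QPC cKO gate. Among them the summed level was 850 in control and 783 in QPC cKO. Past 1.5-fold, 4 of the genes were lower and 3 higher there, beside 3297 and 1897 of 14996 genes. Within the cells with under 10 collagen UMIs the summed level was 834 and 837. There 1 gene, Bbs1 (log2 ratio 0.63), was past 1.5-fold higher and none was past it lower, beside 5.99% and 13.4% of 14204 genes. Ift20 was then at 86.3 in control and 74.1 in QPC cKO (log2 ratio -0.22, interval -0.32 to -0.13) and Ift27 at 30.4 in control and 21.8 in QPC cKO (log2 ratio -0.47, interval -0.64 to -0.31).

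Genes that were low in MOF cKO basal cells had these values in QPC cKO. Ift74 was at 27.3 in control and 28.4 in QPC cKO (log2 ratio 0.06, interval -0.07 to 0.18) and Wdr34 at 14.8 in control and 18.96 in QPC cKO (log2 ratio 0.36, interval 0.20 to 0.52). Arl13b was at 47.2 in control and 40.4 in QPC cKO (log2 ratio -0.22, interval -0.33 to -0.12). Wdr34 was higher in QPC cKO. Within the cells with under 10 collagen UMIs, though, Wdr34 was at 19.7 in control and 19.96 in QPC cKO (log2 ratio 0.02, interval -0.17 to 0.21). These intervals cover counting error only, and not the differences in collagen and hair germ UMIs between the gates. Stage, chemistry and control library differ from those of the MOF cKO comparisons, so the 2 deletions were not compared with each other.

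In suprabasal cells at E17.5 (190 in control and 72 in QPC cKO) the summed level was 638 and 541 CPM. Of the 39 genes with at least 20 UMIs over both libraries, 7 were at least 1.5-fold lower (11.5% of 10513 genes) and 1 higher, Ofd1 (6.17%), with a median log2 ratio of -0.17 beside -0.04 for all genes. This split moved with the cell filter, as given in the last section. The lowest were Ttc8 at 6.02 in control and 1.44 in QPC cKO (log2 ratio -1.87, interval -4.42 to -0.38), Ttc21b at 12.8 in control and 4.31 in QPC cKO (log2 ratio -1.51, interval -2.77 to -0.56) and Bbs2 at 4.01 in control and 1.44 in QPC cKO (log2 ratio -1.30, interval -3.88 to 0.27). Ttc8 and Bbs2 had 3 UMIs each in QPC cKO. Ofd1, which controls the length of the centriole, was highest at 9.63 in control and 16.8 in QPC cKO (log2 ratio 0.80, interval 0.13 to 1.46), followed by Dync2h1 at 5.82 in control and 8.62 in QPC cKO (log2 ratio 0.58, interval -0.37 to 1.46) and Ift122 at 3.41 in control and 4.31 in QPC cKO (log2 ratio 0.37, interval -1.01 to 1.58).

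In fibroblasts at E17.5 the summed level was 922 in control and 925 in QPC cKO. None of the 47 genes was at least 1.5-fold lower (8.45% of 15355 genes) and 1, Ift80, was higher (10.1%), with a median log2 ratio of 0.18 beside 0.10 for all genes. The highest were Ift80 at 11.1 in control and 17.3 in QPC cKO (log2 ratio 0.63, interval 0.47 to 0.80), Tmem231 at 3.78 in control and 5.64 in QPC cKO (log2 ratio 0.58, interval 0.29 to 0.87) and Rfx3 at 7.94 in control and 11.5 in QPC cKO (log2 ratio 0.54, interval 0.34 to 0.74). The lowest were Arl13b at 65.6 in control and 47.2 in QPC cKO (log2 ratio -0.48, interval -0.55 to -0.40), Ift20 at 204 in control and 156 in QPC cKO (log2 ratio -0.39, interval -0.43 to -0.34) and Ift27 at 49.3 in control and 42.9 in QPC cKO (log2 ratio -0.20, interval -0.29 to -0.12). Ift20 and Ift27 were thus lower in QPC cKO in fibroblasts as well as in basal cells.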

How the data were processed

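Dissociated embryonic mouse back skin was profiled by droplet single-cell RNA sequencing in 10 libraries. The authors aligned reads to mm10 with Cell Ranger (versions 1.3.1 and 6.1.2 in the submitters' processing notes) and deposited raw UMI counts per gene and cell for each library. No value was normalized before deposit. The chemistry differed by stage. Doublets were not removed here.

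UMI counts were summed per library over the cells of each gate, and a level is UMIs per 1000000 UMIs of that sum (CPM). Sums were compared with the edgeR quasi-likelihood test (edgeR 4.0.16 in R 4.3.3; filterByExpr, TMM scaling, Benjamini-Hochberg adjusted p under 0.05 over all genes tested). Stage was a term over both stages, and the library was a block between gates of the controls. Log2 fold changes carry standard errors (SE), derived as the absolute log2 fold change divided by the square root of the F statistic of its test. Labels do not say whether libraries of a group came from separate litters, so p-values measure the spread between these samples. At E17.5, with 1 library per group, a ratio was taken for genes with at least 20 UMIs, with 95% exact counting intervals and a prior of 0.5. A group at 0 was read against a floor of 3 UMIs. These intervals and floors cover counting error only. The scripts were tested on simulated data.

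Alternatives were DESeq2 1.42.0, library sizes alone, all genes with at least 1 UMI, each library left out in turn, a replicate block at E16.5, cells under 5% mitochondrial UMIs, gates per 10000 UMIs, keratinocytes with under 10 collagen UMIs and basal cells without hair germ UMIs. The last of these was not run for suprabasal against basal cells. The named genes were the most counted gene of each role, Ift74, Wdr34, Arl13b, Rfx2 and Rfx3 in the MOF cKO comparisons, and the 12 smallest adjusted p-values in each comparison between gates, and the 3 highest and 3 lowest ratios at E17.5. Other genes named in the text were chosen after their values were seen. The members, the lists and these rules were chosen with earlier results of these data known. Promoters were read from RefSeq (GRCm38.p6), and gene positions are of that build.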

Additional observations from a re-analysis of the deposited data

How the results depend on the processing

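Of the values that answer a comparison, 170 kept their call or stayed within the limit for a move over the alternatives tried and 27 moved; of the values of single named genes 620 kept direction and call, 22 gained a call, 14 lost one and 19 turned direction. The cause of these moves was not tested, beyond fewer samples or other genes entering a fit. Members called in basal cells at E15.5 were 0 to 44 with each library left out, with 7 when MOF cKO replicate 5 was out (4.97% of all genes called) and 44 when replicate 6 was out (49.4%). In basal cells at E16.5 they were 4 of 46 with genes of at least 1 UMI (5.95% of all genes called), 1 of 29 with DESeq2 (3.12%) and 3 of 22 with gates per 10000 UMIs (9.01%). Over both stages they were 6 with genes of at least 1 UMI (2.27%), 2 with DESeq2 (2.49%) and 0 to 16 with a library left out, 16 without E15.5 MOF cKO replicate 6 (6.98%). In suprabasal cells at E15.5 they were 1 with genes of at least 1 UMI (2.91%) and 0 to 9 with a library left out, 9 without replicate 6 (1762 of 11374 genes called). In fibroblasts they were 2 at E15.5 (0.954%) and 2 at E16.5 (9.39%) with genes of at least 1 UMI, 2 at E15.5 with DESeq2 (3.04%) and 6 over both stages with DESeq2 (10.4%). Between basal cells and fibroblasts of the controls they were 11 to 24 with a library left out (44.2% to 59.3% of all genes) and 15 with cells under 5% mitochondrial UMIs (51.5%). Between suprabasal and basal cells they were 8 to 23 with a library left out (18.5% to 33% of all genes), 28 with gates per 10000 UMIs (44%) and 28 in cells with under 10 collagen UMIs (44%). Past 1.5-fold in QPC cKO basal cells were 8 genes with cells under 5% mitochondrial UMIs (39.4% of all genes), 2 with gates per 10000 UMIs (16.6%) and 1 with under 10 collagen UMIs (19.4%), and in fibroblasts 2 with gates per 10000 UMIs (19.8%). In QPC cKO basal cells without hair germ UMIs, 4 genes were past it lower and 3 higher (3297 and 1897 of 14996 genes). In QPC cKO suprabasal cells under 5% mitochondrial UMIs, 5 of 31 genes were past it lower and 4 higher (1444 and 699 of 9454 genes). With gates per 10000 UMIs, 5 of 34 were lower and 3 higher (1252 and 635 of 10019 genes). With under 10 collagen UMIs, 7 of 34 were lower and 2 higher (1196 and 594 of 9907 genes). The summed level of MOF cKO minus control at E16.5 was -402 CPM in basal cells without hair germ UMIs and -438 in suprabasal cells with under 10 collagen UMIs.

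Directions turned for Ift20, Bbip1, Rfx3 and Arl13b in basal cells, given on the log2 scale. Ift20 at E15.5 was -0.090 with library sizes alone and -0.15 to 0.26 with a library left out, at E16.5 it was -0.40 to 0.071, and over both stages -0.19 to 0.043. Bbip1 at E16.5 was -0.42 to 0.041 with a library left out and 0.0040 without hair germ UMIs, and over both stages it was -0.27 with library sizes alone, -0.075 with under 10 collagen UMIs and -0.089 to 0.13 with a library left out. Rfx3 at E15.5 was 0.067 with cells under 5% mitochondrial UMIs, 0.015 with under 10 collagen UMIs and 0.016 without hair germ UMIs, and over both stages it was -0.11 with library sizes alone and -0.014 with gates per 10000 UMIs. Arl13b at E16.5, -0.37 as reported, was 0.47 with under 10 collagen UMIs and 0.29 without hair germ UMIs.

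At E16.5, where genotypes share replicate numbers, same-numbered samples did not deviate together (correlation of deviations -0.08 in basal cells, -0.04 in suprabasal cells and -0.02 in fibroblasts). A fit with the replicate block called 0 members in each gate, and 52, 88 and 576 genes in all, against 23, 172 and 583 without the block. Depth limits the E16.5 MOF cKO keratinocytes most, where 93 and 135 UMIs of these genes in basal cells and 37 and 57 in suprabasal cells stand behind every value.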
